A study of Mus musculus with 8 samples.

Results

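DNA methylation is placed, removed and read by 3 kinds of protein. Here 9 genes that encode them were followed in mRNA pulled down with ribosomes tagged in PV+ interneurons. They were the writers *Dnmt1*, *Dnmt3a*, *Dnmt3b* and *Dnmt3l*, the erasers *Tet1*, *Tet2* and *Tet3*, and the readers *Mbd1* and *Mbd2*. They are 9 of the 45706 genes in the files and were taken by gene name. The set was selected on its measured levels in this same comparison of CNO with vehicle, since *Dnmt3l* was among the 12 genes (0.0686% of those tested) called between the groups by edgeR's likelihood ratio test with robust dispersion and the set was drawn up with that result known. The differences of these 9 genes between the groups are therefore given as a description, without a test.

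The question was which mRNAs in PV+ interneurons of the primary somatosensory cortex (S1) differ when the activity of these cells is raised. The mice were PvalbFlp/+;Neurod6Cre/+ animals that received an AAV at postnatal day 1 and were used between postnatal days 42 and 70. The virus encodes the HA-tagged ribosomal protein RPL10a and the myc-tagged receptor hM3Dq under the neuronal hSyn promoter, is turned on by Flp in cells that express *Pvalb* and off by Cre in cells that express *Neurod6*, and labels the cells sparsely. Both groups carried the virus, so in these samples CNO, the ligand of hM3Dq, was not given to mice without the receptor. The study did so only in a separate experiment on synaptic currents, with a virus that encodes mCherry alone. The CNO group (4 samples) received 1 mg/kg CNO in 5 injections over 48 h and the vehicle group (4 samples) received the solvent alone. Each sample pooled S1 from 4 brains, and the tagged ribosomes were pulled down with an antibody against HA.

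DNMT1 copies methylation onto the new strand after replication, whereas DNMT3A and DNMT3B methylate sites that carried none. DNMT3L has no catalytic activity of its own, binds both of these enzymes and is best known from germ cells. TET enzymes oxidise 5-methylcytosine, the first step of its removal, and MBD proteins bind methylated CpG sites and recruit repressors of transcription. Neurons are known for abundant DNMT3A after birth, for methylation outside CpG sites and for oxidised methylcytosine. Methylation itself was not analysed here.

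The samples held between 44064161 and 49413273 counted reads, so that 3 reads correspond to 0.0607 to 0.0681 CPM (reads scaled to equal library totals), a limit that covers counting error only. *Fos*, whose mRNA rises in active neurons, had 32.2 to 69.5 CPM with CNO and 11.3 to 15.8 CPM with vehicle (log2 fold change 1.93, standard error (SE) 0.22, adjusted p = 0.0520 from edgeR's quasi-likelihood test). *Pvalb*, the defining gene of these cells, had 819.7 to 1160.4 TPM (counts scaled by transcript length and to a common total) with CNO and 300.1 to 1050.0 TPM with vehicle. All 10 PV+ interneuron markers were above a mean of 1 TPM, and their summed level was 2598 to 4035 TPM with CNO and 1210 to 3211 TPM with vehicle. The 10 pyramidal cell markers were also all above 1 TPM, with sums of 660 to 900 TPM and 838 to 1033 TPM. Summed markers of other cells, in the same order of groups, were 444 to 550 and 559 to 667 TPM for other interneurons, 425 to 497 and 433 to 543 TPM for astrocytes and 563 to 1020 and 777 to 999 TPM for oligodendrocytes. They were 42 to 66.6 and 52.8 to 79.9 TPM for microglia and 23.3 to 69.2 and 36.2 to 54.0 TPM for endothelial cells, and no marker was at 0 in all samples. Vehicle replicate 1 stood apart, with the lowest *Pvalb* and the highest *Slc17a7* level (547 TPM against 331 to 493 TPM with CNO). Values that this sample moved are given with and without it where the difference is described.

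The starts of these genes differ in CpG sites, the pairs of bases that the enzymes methylate. RefSeq (GRCm38.p6) gave 13 windows of 300 bases around transcription starts for 7 of the 9 genes, with 250 bases before and 50 after the start. The 3 windows of *Dnmt3l* held 6, 4 and 3 CpG sites, and 43.6%, 31.4% and 23.3% of all 32851 windows held fewer. By contrast the window of *Tet2* held 57 CpG sites, with fewer in 99.8% of windows, and the first of *Dnmt3a* held 46, with fewer in 98.4%. The median over all windows was 7. *Dnmt3b* had 30 CpG sites, *Tet3* 22, *Tet1* 17 and the 3 windows of *Dnmt1* 33, 12 and 2. Shown are stretches upstream of a RefSeq start and free of exons of the gene. They come from the gene that differed most between the groups and from the pair whose levels moved together most closely across samples. All of these stretches lie within the annotated spans of their genes given below, which begin further upstream. They are written 5′ to 3′ on the strand of the gene, with CpG sites in capitals. Those of *Dnmt3l* lie on the plus strand at chr10:78042128-78042286 and chr10:78049592-78049841, that of *Dnmt3a* on the plus strand at chr12:3806730-3806979, and that of *Tet2* on the minus strand at chr3:133544391-133544640.
Dnmt3l, first window: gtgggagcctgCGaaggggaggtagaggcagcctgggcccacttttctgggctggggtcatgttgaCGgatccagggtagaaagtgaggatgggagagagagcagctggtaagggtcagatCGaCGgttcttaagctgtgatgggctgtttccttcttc
Dnmt3l, second window: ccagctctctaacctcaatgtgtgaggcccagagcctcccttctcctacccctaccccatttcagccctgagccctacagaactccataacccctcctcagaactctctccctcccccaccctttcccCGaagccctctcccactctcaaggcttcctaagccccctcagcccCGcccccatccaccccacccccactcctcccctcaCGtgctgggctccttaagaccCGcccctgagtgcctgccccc
Dnmt3a: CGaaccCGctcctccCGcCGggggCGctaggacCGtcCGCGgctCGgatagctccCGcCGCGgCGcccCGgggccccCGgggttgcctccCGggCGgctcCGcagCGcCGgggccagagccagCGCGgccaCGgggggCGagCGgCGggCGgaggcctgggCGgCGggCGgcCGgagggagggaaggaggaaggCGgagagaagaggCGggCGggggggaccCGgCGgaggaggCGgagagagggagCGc
Tet2: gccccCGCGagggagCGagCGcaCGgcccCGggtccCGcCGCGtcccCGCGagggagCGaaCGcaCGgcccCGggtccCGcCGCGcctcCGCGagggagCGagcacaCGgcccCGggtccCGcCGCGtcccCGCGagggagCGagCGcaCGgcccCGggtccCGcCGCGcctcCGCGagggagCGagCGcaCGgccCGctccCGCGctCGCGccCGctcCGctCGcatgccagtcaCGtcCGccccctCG
On both strands of the 13 windows, the AP-1 motif of FOS proteins (TGANTCA) occurred in 0, as against 7.81% of all windows. The CRE motif of CREB (TGACGTCA) occurred in 0, as against 1.79%. The E-box CACGTG occurred in 2 windows, the second of *Dnmt3l* and the third of *Dnmt3a*, as against 7.15% of all windows. These are matches of letters and show no binding.

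Per transcript length, the order of the mean levels over the 8 samples was *Mbd2*, *Dnmt3a*, *Tet3*, *Tet2*, *Dnmt1*, *Mbd1*, *Tet1*, *Dnmt3l* and *Dnmt3b*. Markers of other cells were present in the pulldown, so these levels cannot be assigned to PV+ interneurons alone. *Mbd2* had 59.9 ± 2.30 TPM (SD, n = 8) and *Dnmt3a*, the most abundant writer, 39.7 ± 10.1 TPM. *Tet3* and *Tet2* followed with 29.6 ± 6.49 and 28.8 ± 8.12 TPM, and *Dnmt1* and *Mbd1* with 18.7 ± 2.19 and 17.4 ± 0.972 TPM. *Tet1* was at 7.70 ± 2.03 TPM. The lowest levels were 1.69 ± 1.25 TPM for *Dnmt3l* and 0.775 ± 0.233 TPM for *Dnmt3b*, which was the one gene of the set with a mean under 1 TPM. Neighbours in this order were compared within each sample on the log2(TPM + 0.1) scale (two-sided exact sign-flip permutation test over 8 samples, adjusted over 8 pairs). In 4 pairs the first gene was higher in 8 of 8 samples, each with an adjusted p of 0.0125 in this exact permutation test, whose smallest unadjusted p is 0.00781. These were *Mbd2* over *Dnmt3a* (mean log2 difference 0.63 ± 0.33), *Dnmt3a* over *Tet3* (0.41 ± 0.12), *Tet2* over *Dnmt1* (0.58 ± 0.32) and *Mbd1* over *Tet1* (1.20 ± 0.31). A further 2 pairs did not differ beyond their spread. *Tet3* and *Tet2* differed by 0.05 ± 0.17 (6 of 8 samples, exact permutation test, adjusted p = 0.430) and *Dnmt1* and *Mbd1* by 0.10 ± 0.17 (5 of 8 samples, adjusted p = 0.170, exact permutation test). The pairs with *Dnmt3l*, whose values chose the set, are a description. *Tet1* was above it by 2.44 ± 1.45 in 8 of 8 samples, and *Dnmt3l* was above *Dnmt3b* by 0.72 ± 1.36 in 6 of 8 samples. The order was the same in each group, except that *Dnmt3b* was above *Dnmt3l* with vehicle and below it with CNO.

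**Figure D1:**
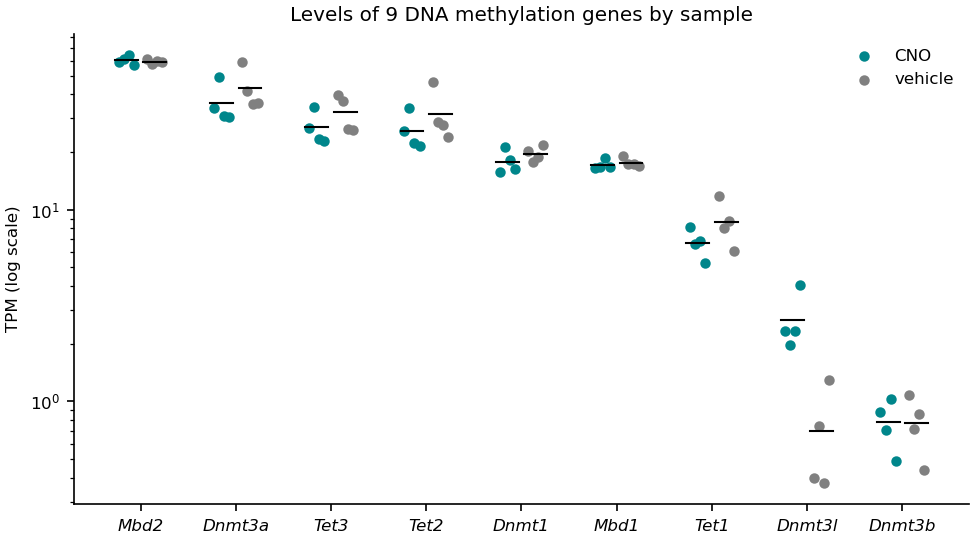
TPM on a log axis of the 9 genes in order of their mean, with CNO samples in teal, vehicle samples in grey and horizontal bars for the group means (n = 4 each). The groups are intermingled for 8 genes, whereas for *Dnmt3l* the 4 CNO samples lie above the 4 vehicle samples.

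Comparing CNO with vehicle, all 9 genes passed the filter on low counts, and 3 had a higher and 6 a lower fitted level with CNO. Their median log2 fold change was -0.07, beside 0.0014 over the 17495 genes tested. In 1 of the 9, *Dnmt3l*, all CNO samples lay above all vehicle samples. Over all genes tested, 0.789% showed such a separation upwards and 2.42% in either direction. Because this comparison was known when the list was made, nothing is read from that count. The quasi-likelihood test called no gene of the whole table (0%) when it had to reach an adjusted p of 0.05, differ by 1.5-fold and average over 1 TPM, with 716 genes (4.09%) at an unadjusted p under 0.05, 12 called by the likelihood ratio test and 10 (0.0572%) by DESeq2.

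*Dnmt3l*, the cofactor without catalytic activity, lies at chr10:78041947-78063622 on the plus strand of GRCm38 (ENSMUSG00000000730). It had 40, 25, 35 and 54 reads in CNO replicates 1 to 4 and 7, 9, 10 and 18 reads in vehicle replicates 1 to 4. In TMM-normalized CPM this was 0.848, 0.528, 0.750 and 1.14 with CNO and 0.157, 0.192, 0.208 and 0.363 with vehicle. The groups did not overlap, with CNO replicate 2 the lowest of its group and vehicle replicate 4 the highest of the other. The means were 0.815 ± 0.252 and 0.230 ± 0.0914 CPM (SD, n = 4), a log2 fold change of 1.81 (SE 0.36) or 3.50-fold. The summed reads were 154 with CNO (exact Poisson 95% interval 131 to 180) and 44 with vehicle (32.0 to 59.1), intervals that cover counting error only. Single samples were far less certain, since the interval of CNO replicate 2 (16.2 to 36.9 reads) overlapped that of vehicle replicate 4 (10.7 to 28.4 reads). In 2 vehicle samples the gene had under 10 reads, so that it passed the filter in part through the group in which it was higher.

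**Figure D2:**
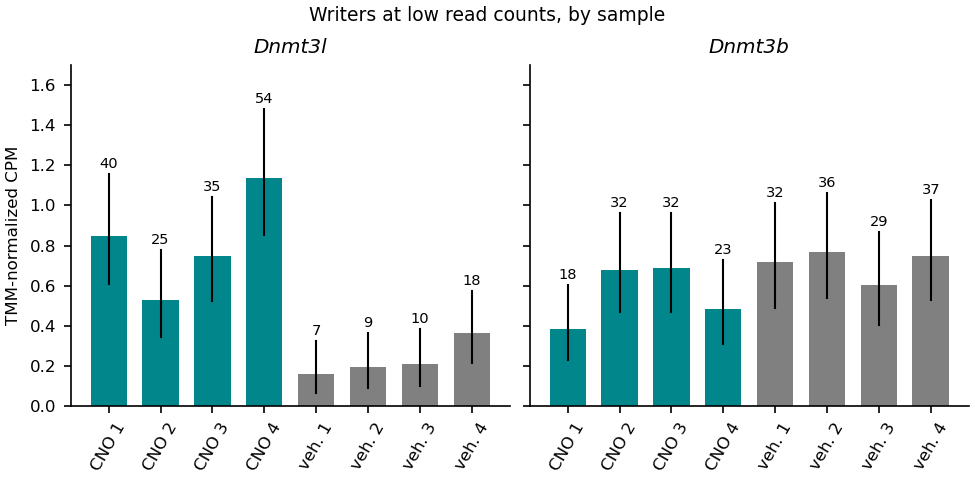
TMM-normalized CPM of *Dnmt3l* and *Dnmt3b* in each sample, with CNO in teal and vehicle in grey, exact Poisson 95% intervals as lines and the rounded read count above each bar. *Dnmt3l* ranges from 25 to 54 reads with CNO and 7 to 18 with vehicle, whereas the ranges of *Dnmt3b*, 18 to 32 and 29 to 37, overlap.

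Per transcript length, *Dnmt3l* had 2.33, 1.97, 2.34 and 4.05 TPM with CNO and 0.400, 0.748, 0.376 and 1.29 TPM with vehicle, and the groups again did not overlap. The mean was 2.67 ± 0.931 TPM with CNO and 0.704 ± 0.427 TPM with vehicle (SD, n = 4). The length that the authors' quantification used, read as counts per TPM relative to the median gene of the sample, was 0.252 to 0.523 for *Dnmt3l* and 0.659 to 0.733 for *Mbd2*, although annotated exons of these genes cover 2988 and 3214 bases. None of its 31-base stretches occurred in the sense direction in annotated transcripts of other genes. The opposite direction was not searched. Its exons share 67 bases with *Aire* on the opposite strand, which had 0 to 5 reads in any sample. Whether the counting used strand is not given in the sources used here. Leaving out each sample in turn left the log2 fold change between 1.60 (without CNO replicate 4) and 2.12 (without vehicle replicate 4).

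*Dnmt3a*, the main de novo enzyme of neurons (chr12:3806007-3914443, plus strand), had 87.0, 102.5, 79.0 and 72.2 CPM with CNO and 112.7, 82.7, 81.7 and 83.2 CPM with vehicle. The groups overlapped, and the highest level of all was in vehicle replicate 1. The means were 85.2 ± 13.0 and 90.1 ± 15.1 CPM (SD, n = 4) and the log2 fold change was -0.08 (SE 0.14). It turned to 0.04 without vehicle replicate 1. Of the summed TPM of the 4 writers, *Dnmt3a* held 58.7% to 73.1% in single samples, the highest in vehicle replicate 1, and up to 68.4% in the others. Its antisense partner *Dnmt3aos*, which shares 133 exon bases, had 0 to 6 reads.

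*Dnmt1*, the maintenance enzyme (chr9:20907209-20959888, minus strand), had 38.9, 48.2, 45.2 and 41.6 CPM with CNO and 44.9, 41.2, 45.8 and 50.3 CPM with vehicle. The groups overlapped throughout, with a log2 fold change of -0.07 (SE 0.098). *Dnmt3b*, the other de novo enzyme (chr2:153649450-153687730, plus strand), had 0.382, 0.676, 0.685 and 0.484 CPM with CNO and 0.716, 0.769, 0.602 and 0.747 CPM with vehicle. The lowest levels were in CNO replicates 1 and 4, but the other CNO samples lay within the vehicle range. Its summed reads were 105 with CNO (exact Poisson 95% interval 85.9 to 127) and 134 with vehicle (112 to 159), and its log2 fold change was -0.35 (SE 0.27). On the log2(TPM + 0.1) scale the difference was 0.02. Of its 31-base stretches, 13.5% also occur in *Dnmt3c*, which no row of the files names, so that its counts are uncertain. In summed TPM the writers reached 57.5 ± 10.5 with CNO and 64.3 ± 11.5 with vehicle (SD, n = 4), and the vehicle mean was 58.6 without vehicle replicate 1.

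The erasers had lower fitted levels with CNO, but in each the groups overlapped. *Tet2* (chr3:133463679-133545139, minus strand) had 58.9, 62.6, 51.8 and 46.5 CPM with CNO and 88.0, 60.0, 50.6 and 52.5 CPM with vehicle. Vehicle replicate 1 was far above the other 7 samples. The log2 fold change of -0.19 (SE 0.17) was 0.01 without it. *Tet3* (chr6:83362373-83459084, minus strand) had 48.0, 60.3, 44.7 and 44.0 CPM with CNO and 56.1, 47.8, 49.8 and 49.4 CPM with vehicle, with a fitted log2 difference of -0.04 (SE 0.11) that was 0.0050 without vehicle replicate 1. CNO replicate 2 and vehicle replicate 1 were the highest. *Tet1* (chr10:62804570-62908996, minus strand), the least abundant of the 3, had 13.5, 10.6, 9.77 and 7.83 CPM with CNO and 13.5, 11.6, 11.3 and 10.5 CPM with vehicle. On the log2 scale its fitted difference was -0.17 (SE 0.16). The groups overlapped, with CNO replicate 1 the highest and CNO replicate 4 the lowest sample. Leaving out 1 sample moved this value between -0.32 (without CNO replicate 1) and -0.066 (without CNO replicate 4), and it was -0.10 without vehicle replicate 1. In summed TPM the erasers reached 59.5 ± 11.4 with CNO and 72.8 ± 18.3 with vehicle (SD, n = 4), and the vehicle mean was 64.4 without vehicle replicate 1, which held 97.9.

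The readers had the smallest spread of the 9 genes. The coefficient of variation of CPM over the 8 samples was 4.55% for *Mbd2* and 5.92% for *Mbd1*, whereas it was 8.46% to 22.0% for the other genes apart from *Dnmt3l* (68.7%). *Mbd2*, which brings the NuRD complex to methylated DNA (chr18:70568189-70626131, plus strand), had 44.6, 41.7, 45.9 and 44.0 CPM with CNO and 41.1, 42.4, 41.7 and 40.2 CPM with vehicle. The groups overlapped through CNO replicate 2 alone, which lay below the highest vehicle samples, and the log2 fold change was 0.09 (SE 0.076). *Mbd1* (chr18:74267605-74282732, plus strand) had 19.8, 18.4, 22.4 and 20.7 CPM with CNO and 20.5, 19.7, 20.4 and 19.0 CPM with vehicle. These overlapped as well, with a log2 fold change of 0.03 (SE 0.091).

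**Figure D3:**
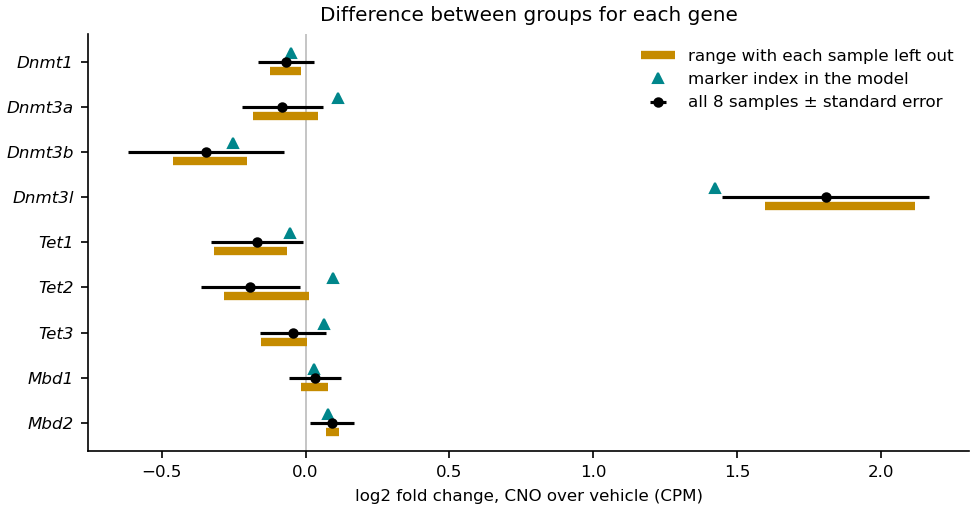
Log2 fold change of CNO over vehicle for each gene (CPM), with SEs as black lines, the range when each of the 8 samples is left out as orange bars and the value with the marker index in the model as teal triangles. *Dnmt3l* lies at 1.81 and the other 8 genes between -0.35 and 0.09.

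The balance of PV+ interneuron and pyramidal cell markers varied between samples, and some of the 9 genes varied with it. A marker index was taken as the mean log2 CPM of the 10 PV+ interneuron markers minus that of the 10 pyramidal cell markers. It was 1.95, 1.20, 1.75 and 2.36 in CNO replicates 1 to 4 and -0.058, 1.37, 1.77 and 1.63 in vehicle replicates 1 to 4. In bulk samples, fewer cells of a type and less RNA per cell cannot be told apart. *Tet2* was lower where the index was higher (n = 8, Pearson r = -0.95, exact permutation p = 0.00223, adjusted over 9 genes 0.0108, Spearman rho = -0.86, exact permutation p = 0.0107, adjusted 0.0964). *Dnmt3a* gave r = -0.90 (exact permutation p = 0.00241, adjusted 0.0108) and rho = -0.71 (exact permutation p = 0.0576, adjusted 0.130). Without CNO replicate 4 and vehicle replicate 1, the 2 samples farthest from the median index, r was -0.59 for *Tet2* and -0.61 for *Dnmt3a*. With CNO replicate 4 alone left out, r was -0.93 for *Tet2* and -0.86 for *Dnmt3a* (exact permutation, adjusted p = 0.0830 for both), and with vehicle replicate 1 alone left out it was -0.78 for both (exact permutation, adjusted p = 0.186). No gene passed the threshold without either sample.

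*Tet3* had r = -0.71 (exact permutation, adjusted p = 0.107), but it passed on the log2(TPM + 0.1) scale (r = -0.84, exact permutation, adjusted p = 0.00484) and without CNO replicate 2 (r = -0.88, exact permutation, adjusted p = 0.0460). The other 5 genes apart from *Dnmt3l* had r between -0.60 and 0.52, with adjusted p of 0.226 to 0.711 in the same exact permutation test. *Dnmt3l* had r = 0.70, given without a test because the values that chose it enter this relation. It was 0.34 without CNO replicate 4 and vehicle replicate 1. With the index as a covariate in the model, the log2 fold change of *Dnmt3l* was 1.42 (SE 0.36). Those of *Dnmt3a*, *Tet2* and *Tet3* became 0.11, 0.10 and 0.06. In the model without the index, that of *Dnmt3l* was 1.66 when vehicle replicate 1 was left out. Within a group there are only 4 samples, too few for a correlation. The part of the marker index in these differences was not tested further.

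**Figure D4:**
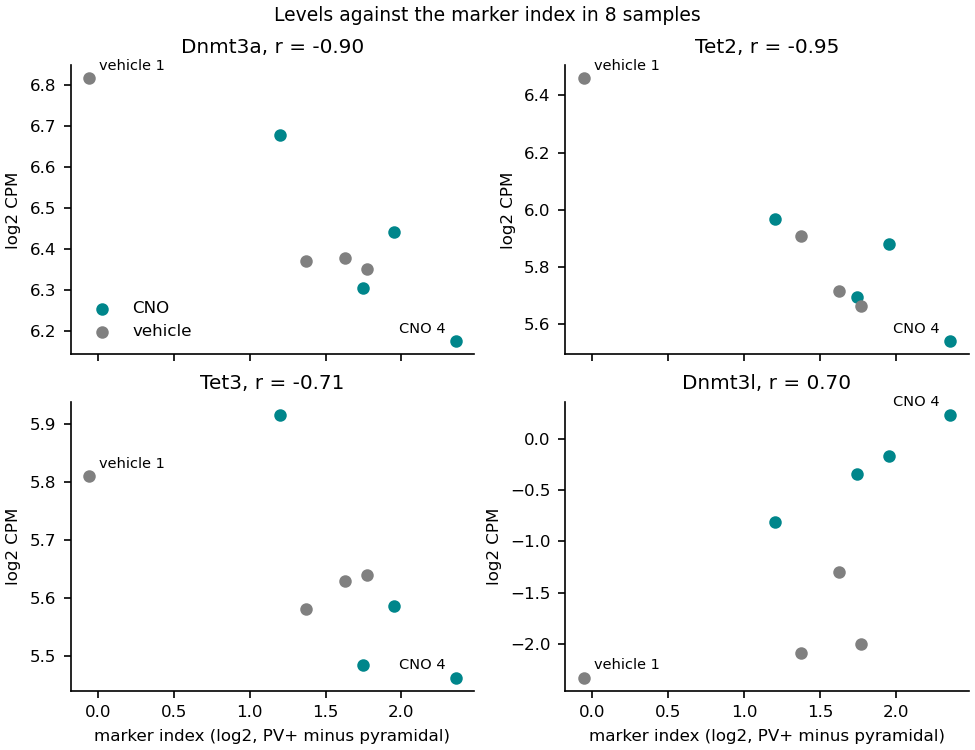
Log2 CPM of *Dnmt3a*, *Tet2*, *Tet3* and *Dnmt3l* against the marker index (log2, PV+ interneuron minus pyramidal markers) in the 8 samples, with CNO in teal and vehicle in grey. Vehicle replicate 1 has the lowest index (-0.058) and CNO replicate 4 the highest (2.36).

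Across the 8 samples, *Dnmt3a* moved most closely with *Tet2* (r = 0.92) and *Tet3* (r = 0.90), and *Mbd1* with *Mbd2* (r = 0.68), values that share the same libraries and are given as a description. Among 15173 genes with a mean above 1 TPM, the patterns most like that of *Dnmt3a* were those of *Cnppd1*, *Pkd1* and *RP24-500I24.4*, each with r = 0.99 over 8 samples. For *Dnmt3l* they were *Gm12918* and *Gm12231*, both with r = 0.97, and *Rnf44* with r = 0.96. All of these were picked as the closest matches among 15173 genes over only 8 samples. Those of *Dnmt3l* also match values that chose the set. They are a description, and shared regulation was not tested.

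Around the 9 genes, 82 other genes of DNA methylation were listed by role, with earlier results of these data known, and 70 were tested. The quasi-likelihood test called 0 of them, as did the likelihood ratio test and DESeq2, and the smallest adjusted p was 0.817. Unadjusted, 7 had a p under 0.05, 5 higher and 2 lower, beside 4.09% of all genes tested. The median log2 fold change was 0.03.

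All 10 other readers of methylated DNA were tested, with a median of -0.02. *Zbtb4*, a zinc finger reader, had 40.0 ± 5.21 CPM with CNO and 32.7 ± 3.06 CPM with vehicle (SD, n = 4), a log2 fold change of 0.29 (SE 0.11, edgeR adjusted p = 0.817). *Mbd3*, a NuRD subunit that binds methylated DNA poorly, had the highest level of the list, 136 TPM, and a log2 fold change of -0.02 (SE 0.10).

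The 14 genes of demethylation and TET partners had a median of 0.07. *Gadd45g*, which like its relatives is linked to activity-dependent demethylation, had 15.3 ± 0.413 CPM with CNO and 12.5 ± 2.22 CPM with vehicle (log2 fold change 0.29, SE 0.13). *Gadd45b* differed by 0.28 (SE 0.15) and *Gadd45a* by 0.04 (SE 0.12). *Ogt*, the TET-binding glycosyltransferase, was the most abundant at 324 TPM and differed by -0.07 (SE 0.15) on the log2 scale. Its level was 575 CPM in vehicle replicate 1 and 387 to 461 CPM in the other vehicle samples. None of these genes passed the test.

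Of 15 genes that target DNMT proteins to chromatin, 14 were tested, all but *Dppa3*, and their median was 0.03. *Cdca7l* differed by -0.29 on the log2 scale (SE 0.20) and *Pcna*, the replication clamp that DNMT1 binds, by 0.21 (SE 0.12). The smallest difference was that of *Ehmt1*, a histone H3K9 methyltransferase, at -0.0028 (SE 0.093). *Setd2*, a histone H3K36 methyltransferase, was the most abundant at 142 TPM, with -0.12 (SE 0.13).

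The 19 co-repressor genes had a median of -0.04. *Ncor1*, the nuclear receptor co-repressor and the most abundant of them at 485 TPM, had 458 ± 54.9 CPM with CNO and 555 ± 52.1 CPM with vehicle, with a fitted log2 difference of -0.28 (SE 0.12, edgeR adjusted p = 0.817). *Gatad2a*, a NuRD subunit, had 0.26 (SE 0.16) and *Sin3b*, a scaffold of histone deacetylases, 0.0082 (SE 0.14) on the same log2 scale. In vehicle replicate 1, *Ncor1* was at 626 CPM and *Gatad2a* at 31.5 CPM. The other vehicle samples held 501 to 550 CPM of *Ncor1* and 44.1 to 47.8 CPM of *Gatad2a*.

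Of 11 genes listed under the methyl donor cycle, which supplies S-adenosylmethionine, 10 were tested, all but *Mat1a*, with a median of 0.09. *Mtr*, methionine synthase, had 2.84, 2.60, 2.36 and 2.29 CPM with CNO and 3.53, 2.93, 2.87 and 3.73 CPM with vehicle. All CNO samples lay below all vehicle samples, as in 1.63% of all genes tested, and the log2 fold change was -0.37 (SE 0.16, edgeR adjusted p = 0.817). *Shmt1*, a folate cycle enzyme, had 3.83 ± 0.643 and 2.76 ± 0.268 CPM and a log2 fold change of 0.47 (SE 0.17, edgeR adjusted p = 0.817). *Mat2b*, which regulates the synthesis of S-adenosylmethionine, had -0.0065 (SE 0.098). *Ahcyl1*, the most abundant gene of this list at 321 TPM, had 0.14 (SE 0.11).

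Germ cell genes are a class that DNA methylation is known to keep silent in other tissues, and of 13 listed only 3 had enough reads to be tested. *Sycp3*, of the synaptonemal complex, had 1.59, 0.592, 1.28 and 1.96 CPM with CNO and 0.693, 0.897, 0.685 and 0.807 CPM with vehicle, with a fitted log2 difference of 0.81 (SE 0.33). *Ddx4*, a germ cell RNA helicase, had 1.84, 1.42, 2.18 and 2.84 CPM with CNO and 1.10, 1.28, 0.831 and 1.84 CPM with vehicle, with a fitted log2 difference of 0.71 (SE 0.29). CNO replicate 2 lay below all vehicle samples for *Sycp3* and below the highest vehicle sample for *Ddx4*. Neither gene passed the test (edgeR adjusted p = 0.817). *Dazl*, a germ cell RNA-binding protein, had 2.25 ± 0.355 and 2.41 ± 0.226 CPM, with -0.10 (SE 0.18) on the log2 scale and an edgeR adjusted p of 0.888. The median of the 3 was 0.71.

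**Figure D5:**
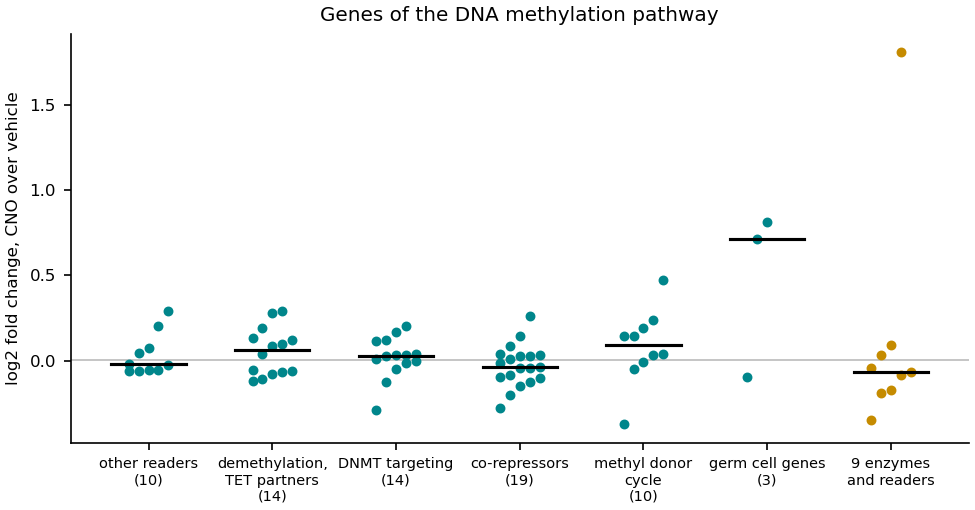
Log2 fold change of CNO over vehicle for each tested gene of the 6 lists (teal, number tested in brackets) and for the 9 enzymes and readers (orange), with the median of each list as a bar. *Dnmt3l*, at 1.81, lies above all others shown, which lie between -0.37 and 0.81.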

How the data were processed

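RNA-seq of ribosome-associated mRNA comprised 4 CNO and 4 vehicle samples, grouped by their labels. The authors checked reads with FastQC, trimmed them with Trim Galore, aligned them with STAR and quantified genes with Salmon and tximport on GRCm38. Whether strand was used in counting is not given in the sources used here. The authors deposited estimated counts without normalization and TPM values, which are scaled by transcript length and keep no depth. Salmon divides reads between similar transcripts, so values of low genes and of near-identical sequence are uncertain. The members and the lists of other genes were chosen with earlier results of these data known.

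After rounding, edgeR 4.0.16 in R 4.3.3 was applied to the counts (TMM, quasi-likelihood test, Benjamini-Hochberg adjustment over all genes tested). A gene was dropped when 4 or more samples had fewer than 10 counts, leaving 17495 genes. To be called, a gene needed an adjusted p below 0.05, over 1.5-fold difference and a mean above 1 TPM. The biological coefficient of variation was 0.183. Log2 CPM of single samples used a prior count of 2. Totals of 44064161 to 49413273 counts per sample set the precision. The labels call the samples replicates, and each is a pool of 4 brains. Levels of neighbouring genes were compared by exact sign flips (256 arrangements) and correlations by all 40320 orders, with scipy 1.17.1. Outliers were screened with Dixon's ratio. Positions and shared sequence came from GENCODE M21, which holds 45143 of the 45706 identifiers.

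Alternatives were edgeR's likelihood ratio test with robust dispersion, DESeq2 1.42.0, RLE normalization, library size only, no filter on low counts, limma 3.58.1 on log2(TPM + 1) or log2(TPM + 0.1), a replicate block, the marker index as a covariate, the adjusted p as the only cut-off, and leaving out each sample. The marker index was also taken from PV+ markers alone and set against log2(TPM + 0.1), and the level order was repeated on log2(TPM + 1). The tests were tested on simulated data. All 9 members are named. Of each list, any called gene was to be named, or else the 2 largest and the smallest absolute changes among genes with a mean TPM above 1, and the most abundant gene. Of the genes this rule picks, 1 is not reported here. The 3 genes most correlated with *Dnmt3l* and *Dnmt3a* are named, and *Fos*, *Rpl10a*, *Chrm3*, *Pvalb* and *Slc17a7* as checks. *Whsc1* is the name in the files for Nsd2. Other experiments of the study were not analysed here.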

Additional observations from a re-analysis of the deposited data

Results flagged for a closer look

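Of 30 groups of 4 samples screened, 4 had a sample far from the other 3 (Dixon's ratio above 0.829), where chance gives about 1.5. All 4 concern vehicle replicate 1, so they are not independent. *Dnmt3a* was highest there, at 6.82 log2 CPM against 6.35 to 6.38 in the other vehicle samples (ratio 0.942). *Pvalb* was lowest there, at 6.64 against 8.36 to 8.61 log2 CPM (ratio 0.875). *Rpl10a*, the gene of the tagged ribosomal protein, was lowest there, at 6.29 against 7.65 to 7.88 log2 CPM (ratio 0.855). *Chrm3*, the gene of the receptor on which hM3Dq is based, was lowest there as well, at 4.56 against 5.51 to 5.53 log2 CPM (ratio 0.979).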

How the results depend on the processing

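Over all genes tested, the quasi-likelihood test called 0 genes, whereas the likelihood ratio test with robust dispersion called 12, DESeq2 called 10 and the quasi-likelihood test without a filter on low counts called 4. Leaving out 1 sample gave 0 to 2, with 2 without CNO replicate 1. The cause was not tested. Of the other pathway genes 0 were called under any of these settings. The number of neighbouring pairs that differed in level was 5 in each alternative run, with the pair *Tet1* and *Dnmt3l* counted although it is only a description (log2(TPM + 1), or 1 sample left out). Correlations with the marker index that passed numbered 2, and 0 to 4 with 1 sample left out: 0 without CNO replicate 4, 0 without vehicle replicate 1 and 4 without CNO replicate 2. The last count includes *Dnmt3l*, as does the count of 3 without vehicle replicate 3. The values of *Dnmt3l* chose the set, so these counts are not independent of that choice. The same holds for the adjusted p of the other genes without CNO replicate 2. On the log2(TPM + 0.1) scale 3 passed, *Tet3* with *Tet2* and *Dnmt3a*. The fitted change of *Dnmt3l* stayed positive in all 17 settings but fell to 1.11 on the log2(TPM + 1) scale. The sign changed in 2 settings each for *Dnmt3a*, *Dnmt3b* and *Tet2*, in 3 for *Tet3* and in 4 for *Mbd1*, and in none for the other genes of the set. *Mbd2* was 0.04 with library size only, which lowers the median of all genes to -0.05. Replicate numbers are shared by the groups, but same-numbered samples did not deviate together (r = -0.14 to 0.26). With a replicate block, 0 genes were called and *Dnmt3l* had a log2 fold change of 1.82. Depth limits *Dnmt3l* and *Dnmt3b* most, whose samples hold 7 to 54 and 18 to 37 reads.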
